A study of Mus musculus with 15 samples.

Results

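Expression of 36 DNA repair genes was examined in 4T1 cells, a mouse line of triple-negative mammary carcinoma. The genes act in homologous recombination, the Fanconi pathway, mismatch repair and excision repair, together with the checkpoint kinases that signal DNA damage, and genes of end joining were left out. They were taken by symbol from the count table, where all 36 were found among 40402 genes. All 36 also passed the filter of at least 1 CPM (the count of a gene scaled to the size of its library) in at least 1 library, as did 17594 genes in all. The members were grouped into 7 roles, and their mean level over the libraries ran from 8.09 to 162 CPM.

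All cells were wild type by the labels and grew in RPMI medium with fetal bovine serum. The untreated library was set against a blackberry extract (BLA), a blueberry extract (BLU) and gold nanoparticles formed with either extract (BLA-A and BLU-A). Treatment began 24 h after seeding at 1 shared concentration, its length is not given in the labels, and gold particles without berry extract were not analysed here. The labels list 3 samples per condition, and the paper states that its n counts biological replicates, 3 where not specified. By the supplementary sequencing report, however, the 3 are equal subsets of the reads of 1 sequenced sample. Their counts differed by less than the sampling noise, with a chi-square per degree of freedom from 0.0951 to 0.475, so they were averaged and counted as 1 library. Each of the 5 conditions was thus a single library of 25613711 to 26956308 counts, and a difference between 2 libraries had no replicate check. The labels give every sample its own batch date, so batch and condition cannot be told apart. Intervals given below cover counting error only, and 3 counts corresponded to 0.111 to 0.117 CPM. In bulk RNA, fewer cells of a kind and less RNA per cell cannot be told apart.

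Epithelial markers were present at 1 CPM or more for 6 of 6 genes in every library, with a summed level of 957 CPM in BLA to 1725 CPM in BLA-A. The summed level of 4 leukocyte markers was 0.547 to 3.70 CPM, and that of 3 endothelial markers was 1.76 to 4.07 CPM. Of 3 fibroblast markers, Pdgfra held nearly all of the 86.5 to 102 CPM, and Lum was listed at 0. Esr1, Erbb2 and Pgr are receptor genes whose proteins define the other breast cancer subtypes. Across the libraries, Esr1 stood at 21 to 35 CPM, Erbb2 at 22 to 56 CPM and Pgr at 0.216 to 1.31 CPM.

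In homologous recombination, the MRE11-RAD50-NBS1 complex trims a broken DNA end, and BRCA1, PALB2 and BRCA2 then act in strand exchange, in which the end is paired with the sister chromatid as a template. The Fanconi core complex marks FANCD2 and FANCI at DNA crosslinks and hands the lesion to the same recombination proteins, while ATM and ATR signal the damage to CHK2 and CHK1. Base excision, nucleotide excision and mismatch repair remove damaged or mispaired bases from 1 strand. Inherited loss of BRCA1, BRCA2 or PALB2 raises the risk of breast cancer, and several of these genes are known targets of E2F factors, which drive entry into S phase.

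Promoter windows of the members were searched for letters of cell cycle elements, and the 5 genes that held an E2F-type match are shown beside their values below. The windows run from 250 bases before to 50 bases after the gene start, come from RefSeq on GRCm38.p6, and existed for 29 of the 36 members in 31 windows. The E2F-type letters were TTTCCCGC, TTTCGCGC, TTTGCCGC or TTTGGCGC on either strand, and they are in capitals here. By exact match on GRCm39 the windows lie at chr5:150445836-150446135 on the plus strand for Brca2, chr11:87295731-87296030 on the minus strand for Rad51c, chr4:43010252-43010551 on the minus strand for Fancg, chr17:88282228-88282527 on the plus strand for Msh6 and chr5:110987599-110987898 on the plus strand for Chek2.
Brca2: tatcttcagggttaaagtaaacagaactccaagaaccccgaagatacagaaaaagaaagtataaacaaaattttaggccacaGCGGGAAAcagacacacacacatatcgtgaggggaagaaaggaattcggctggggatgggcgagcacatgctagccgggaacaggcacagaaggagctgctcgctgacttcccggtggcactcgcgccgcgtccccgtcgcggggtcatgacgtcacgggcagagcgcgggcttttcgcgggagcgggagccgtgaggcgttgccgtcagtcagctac
Rad51c: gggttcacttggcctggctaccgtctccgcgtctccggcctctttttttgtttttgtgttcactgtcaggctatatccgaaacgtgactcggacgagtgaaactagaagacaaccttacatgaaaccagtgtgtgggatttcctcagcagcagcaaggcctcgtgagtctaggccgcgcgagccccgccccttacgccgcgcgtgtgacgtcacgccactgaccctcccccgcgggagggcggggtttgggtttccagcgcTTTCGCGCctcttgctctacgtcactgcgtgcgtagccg
Fancg: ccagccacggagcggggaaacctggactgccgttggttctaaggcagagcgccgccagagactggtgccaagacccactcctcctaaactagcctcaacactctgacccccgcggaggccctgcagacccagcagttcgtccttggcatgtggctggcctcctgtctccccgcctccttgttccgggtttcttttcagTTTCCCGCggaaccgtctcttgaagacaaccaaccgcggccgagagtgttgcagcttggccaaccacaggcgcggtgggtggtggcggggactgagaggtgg
Msh6: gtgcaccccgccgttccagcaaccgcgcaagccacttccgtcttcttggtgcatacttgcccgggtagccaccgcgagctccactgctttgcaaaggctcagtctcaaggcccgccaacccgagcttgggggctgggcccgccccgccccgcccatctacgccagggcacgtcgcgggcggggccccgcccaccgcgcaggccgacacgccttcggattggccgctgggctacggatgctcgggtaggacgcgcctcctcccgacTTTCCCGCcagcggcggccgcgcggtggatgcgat
Chek2: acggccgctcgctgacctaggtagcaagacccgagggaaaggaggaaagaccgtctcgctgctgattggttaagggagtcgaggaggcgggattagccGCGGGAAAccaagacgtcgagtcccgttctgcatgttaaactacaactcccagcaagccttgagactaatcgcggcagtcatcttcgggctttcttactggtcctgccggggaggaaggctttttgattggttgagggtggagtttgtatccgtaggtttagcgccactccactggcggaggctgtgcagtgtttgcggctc

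Each of these windows held 1 match, in Brca2 and Chek2 on the opposite strand. In all, 6 of 31 member windows held the E2F-type letters (19.4%), 2 of them for Rad51c, against 2.26% of 32851 windows of all genes and 3.30% of 17143 windows of genes that passed the filter. CCAAT on either strand was in 21 member windows (67.7%) and in 37.4% of all windows. The CHR letters TTTGAA or TTCGAA were in the windows of Apex1 and Atr only, 6.45% against 19.2% of all windows. None of these motifs contains another, and a match describes the letters of these windows, not a bound site. Nbn, Xpc, Fancd2, Rbbp8, Rad50, Xrcc2 and Exo1 had no window in the table.

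No member differed from the untreated library by more than 1 on the log2 scale in any of the 4 treatments. Values are log2 fold changes of CPM after TMM scaling, with 0.5 added. Of all genes that passed the filter, past 1 in size were 16.4% (BLA), 10.3% (BLU), 20.9% (BLA-A) and 7.88% (BLU-A). Genes at the level of the members, 9016 in all, were past 1 less often, at 5.69% (BLA), 2.54% (BLU), 13.5% (BLA-A) and 0.976% (BLU-A). The genes at this level were added as a second background after the data were seen.

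Smaller differences were found in a few members of each library. In BLA, 2 members were above 0.5 against 21.1% of all genes and 15.9% of genes at their level, and 4 were below -0.5 against 21.4% and 14.2%. In BLU, 0 members were above 0.5 against 18.3% of all genes and 11.9% at their level, and Apex1 alone was below -0.5 against 14.6% and 7.52%. In BLU-A, Xpc alone was above 0.5 against 12.9% and 6.24%, and 0 members were below -0.5 against 11.9% and 2.07%.

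BLA-A held the most members with lower values. Of the 36 genes, 9 were below -0.5, which is 25% against 26% of all genes and 17.0% of genes at their level, while only Xrcc3 was above 0.5 against 23.4% of all genes and 25.7% at their level. The share of lower members was near that of all genes and above that of genes at their level, and the share of higher members was below both. The median of the members was -0.21 against -0.01 over all genes and 0.09 over genes at their level, with 30 of 36 members below 0 (83.3%), against 50.7% of all genes and 43.8% at their level. These counts depended on the scaling. With DESeq2 size factors 5 members were below -0.5 (13.9%, against 24.2% of all genes and 14.9% at their level) and 23 below 0 (63.9%, against 47.7% and 40.1%). With scaling before the filter 4 were below -0.5 (11.1%, against 23.7% and 13.1%) and 20 below 0 (55.6%, against 49.9% and 36.8%). With total counts 17 were below -0.5 (47.2%, against 33.2% and 25.2%) and 33 below 0 (91.7%, against 60.8% and 56.8%). The share of members below -0.5 thus lay above that of genes at their level with TMM and total counts and below it with the other 2 scalings, while the share below 0 was above both backgrounds under all 4. The median of all genes itself moved by -0.17 under total counts, and the median of the members stayed below that of all genes under each of these scalings, at -0.15 against 0.04 with DESeq2 size factors, -0.10 against 0 without the filter and -0.40 against -0.18 with total counts.

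**Figure D1:**
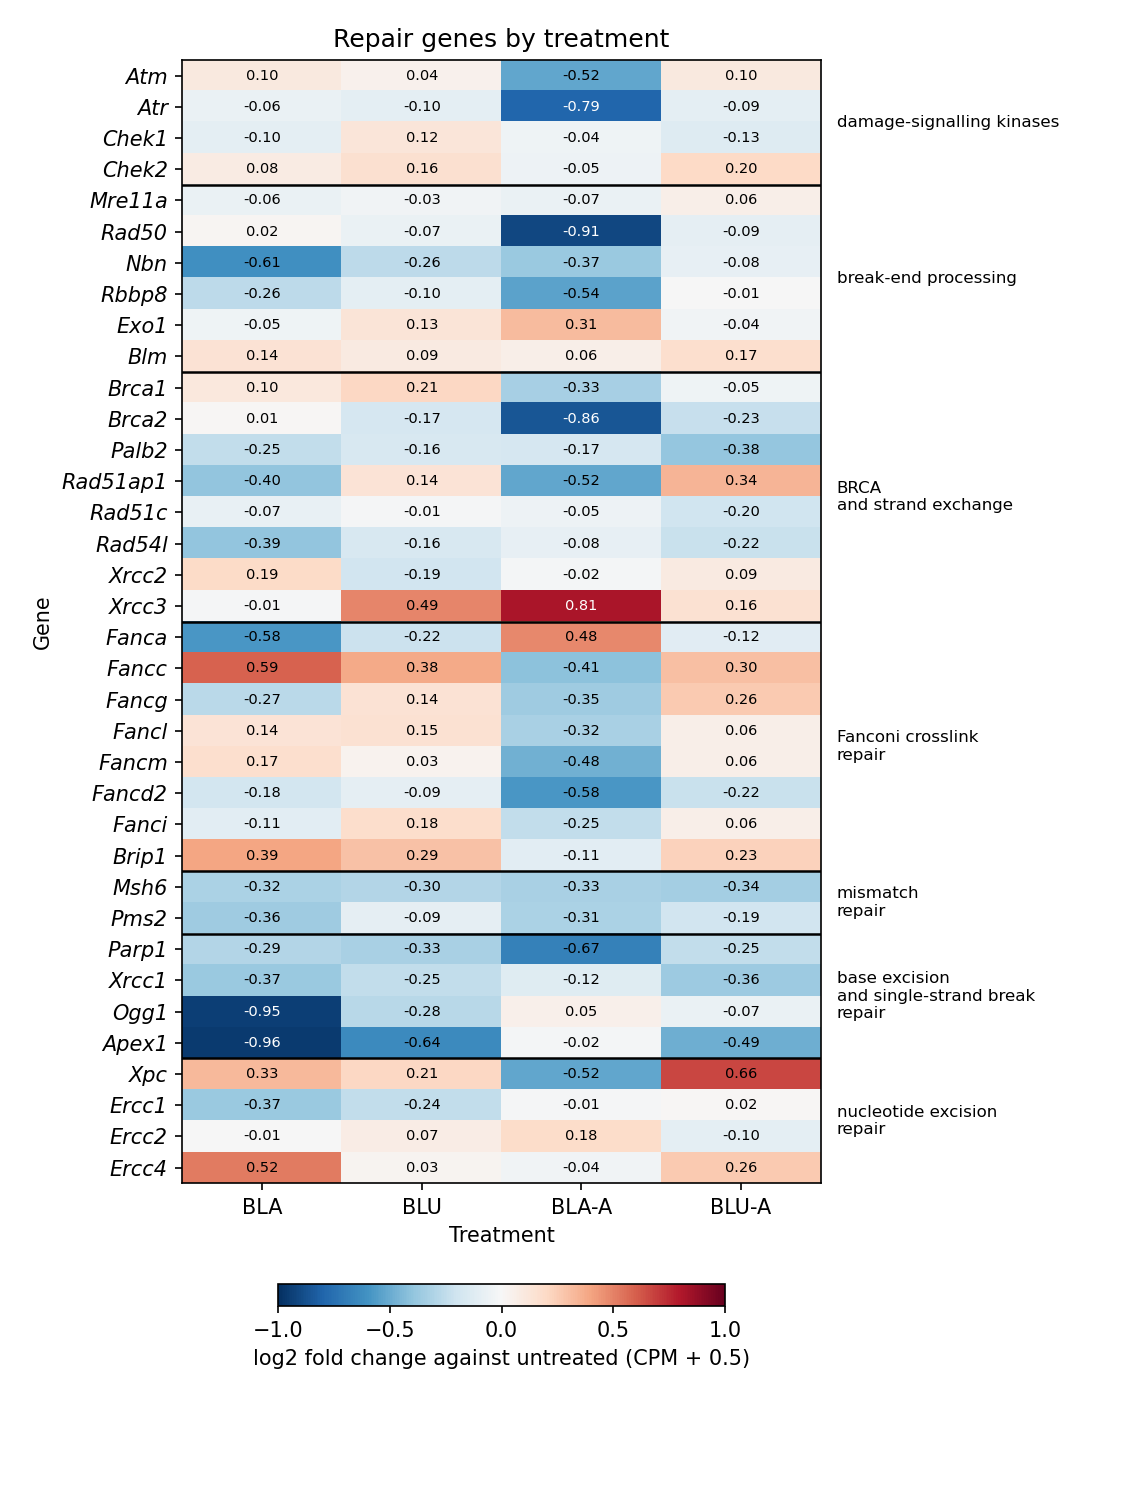
Log2 fold change against untreated (colour and printed value, CPM + 0.5) of the 36 repair genes (rows, grouped by role) in the 4 treatments (columns), 1 library each. The darkest blue cells are Rad50, Brca2 and Atr in BLA-A and Apex1 and Ogg1 in BLA, and the darkest red cell is Xrcc3 in BLA-A.

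Ranked by library, BLA-A was the lowest of the 5 libraries for 19 of 36 members (52.8%), against 32.8% of all genes and 31.3% of genes at their level. BLA was lowest for 10 members (27.8%), near the 23.4% of all genes and 24.0% of genes at their level. The untreated library was highest for 12 members, which is the same as values below the untreated level in all 4 treatments. They were Atr, Nbn, Rbbp8, Palb2, Rad51c, Rad54l, Fancd2, Msh6, Pms2, Parp1, Xrcc1 and Apex1. This is 33.3% of the members, against 19.3% of all genes and 16.1% of genes at their level. Blm alone was above the untreated level in all 4, against 19.4% and 20.7%. With scaling before the filter, 8 members were below in all 4 (22.2%), against 24.2% of all genes and 13.3% at their level. In that setting 5 were above in all 4 (13.9%), against 14.3% and 24.1%. With DESeq2 size factors 12 were below in all 4 (33.3%, against 19.9% and 16.8%). With total counts there were 15 (41.7%, against 22.6% and 20.8%). In 8 members BLA-A was the only treatment below the untreated level (Atm, Chek2, Fancc, Fancl, Fancm, Brip1, Xpc and Ercc4), against 10.5% of all genes and 11.8% at their level. With DESeq2 size factors there were 4 such members (8.54% of all genes), and with scaling before the filter 5 (5.72%). The 4 comparisons share the untreated library, and values up to 0.18 in size changed sign under another scaling or filter.

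**Figure D2:**
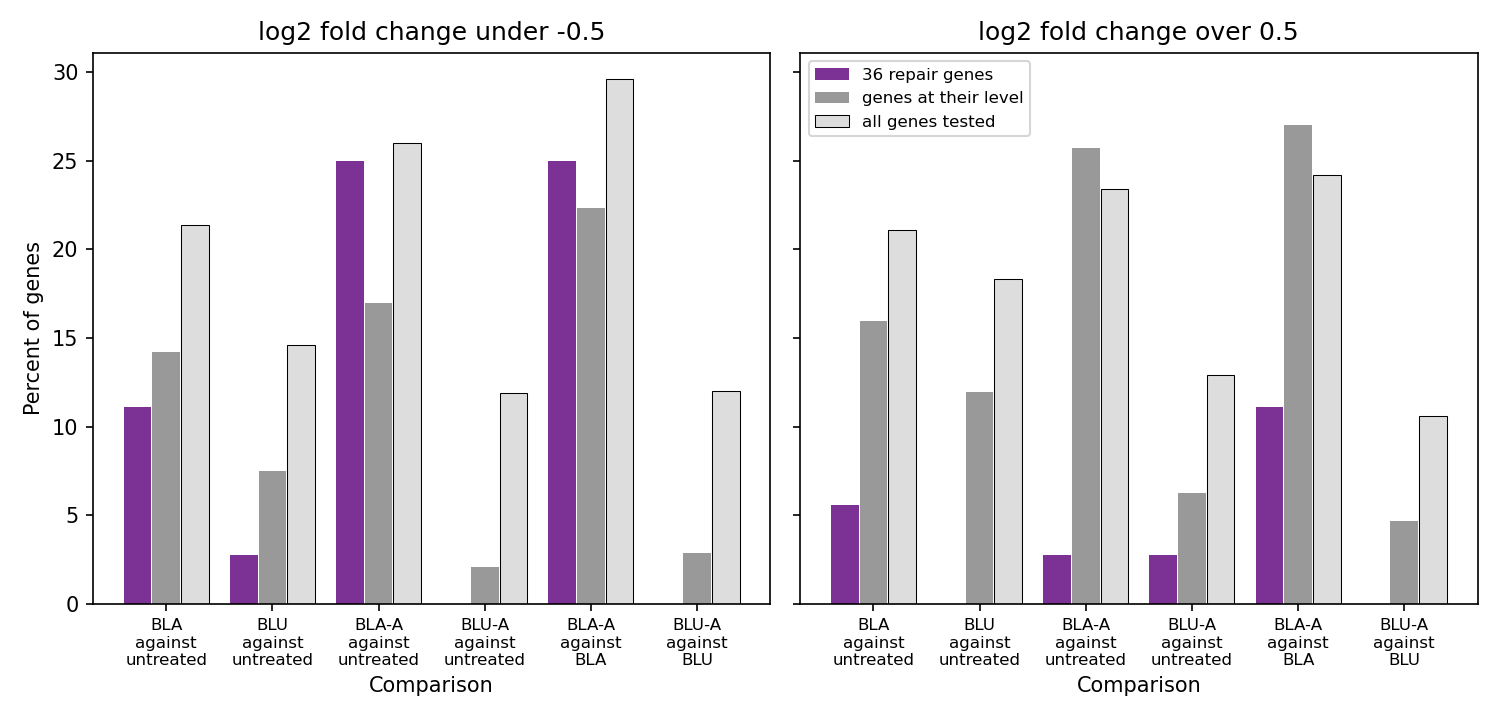
Percent of genes (y axis) with a log2 fold change under -0.5 (left) or over 0.5 (right) in each comparison (x axis), for the 36 repair genes, the 9016 genes at their level and all 17594 genes tested. In BLA-A against untreated the repair genes stand at 25% under -0.5 beside 26% of all genes, and in every comparison their share over 0.5 lies below both backgrounds.

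Among the damage-signalling kinases, Atm and Atr were lower in BLA-A, while Chek1 and Chek2 stayed within 0.25 of the untreated level in every treatment. Atm, which responds to double-strand breaks (chromosome 9, 53348097 to 53448236, minus strand, GRCm39), stood at 126 (untreated), 135 (BLA), 130 (BLU), 87.9 (BLA-A) and 135 CPM (BLU-A). BLA-A was thus the only library of the 5 that stood apart, at a log2 fold change of -0.52 (95% counting interval -0.60 to -0.44), and the other treatments were between 0.04 and 0.10. Atr, which responds to stalled replication forks (chromosome 9, 95739650 to 95835263, plus strand), stood at 82.7, 79.0, 77.1, 47.5 and 77.4 CPM in the same order. Its log2 fold change in BLA-A was -0.79 (-0.90 to -0.69), and the other 3 treatments were between -0.10 and -0.06.

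Chek1, the kinase downstream of ATR, stood at 51.9 (untreated), 48.5 (BLA), 56.6 (BLU), 50.4 (BLA-A) and 47.3 CPM (BLU-A). Chek2, the kinase downstream of ATM, stood at 20.9, 22.1, 23.5, 20.1 and 24.1 CPM. The 5 libraries lay close together for both effector kinases, with log2 fold changes from -0.13 to 0.12 for Chek1 and from -0.05 to 0.20 for Chek2. Chek2 carries an E2F-type match in its window, and Chek1, Atm and Atr do not.

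Of the genes that process broken ends, Rad50 had the lowest value of all members in BLA-A. Rad50, the coiled-coil subunit that tethers DNA ends (chromosome 11, 53539837 to 53598154, minus strand), stood at 180 (untreated), 183 (BLA), 171 (BLU), 95.4 (BLA-A) and 169 CPM (BLU-A). Its levels were chosen for print after they were seen. The log2 fold change was -0.91 (-0.98 to -0.84) in BLA-A and between -0.09 and 0.02 in the other treatments. Its partner in the complex, the nuclease gene Mre11a, differed from untreated by 0.07 at most.

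Nbn, which encodes the NBS1 subunit that recruits ATM (chromosome 4, 15957896 to 15993588, plus strand), stood at 32.2 (untreated), 20.9 (BLA), 26.8 (BLU), 24.7 (BLA-A) and 30.4 CPM (BLU-A). It was lowest in BLA, at -0.61 (-0.77 to -0.46), followed by -0.37 in BLA-A and -0.26 in BLU. Rbbp8, which encodes the resection factor CtIP, was -0.54 in BLA-A and -0.26 in BLA. Exo1, the exonuclease for long-range resection, was 0.31 in BLA-A and between -0.05 and 0.13 elsewhere. Blm, the helicase that acts in resection and in dissolving joined strands, was between 0.06 and 0.17 in the 4 treatments.

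Within the BRCA and strand exchange group, Brca2 lay below and Xrcc3 above the untreated level in BLA-A. Brca2, whose protein acts in strand exchange (chromosome 5, 150446057 to 150496080, plus strand), stood at 151 (untreated), 152 (BLA), 134 (BLU), 83.1 (BLA-A) and 129 CPM (BLU-A). BLA-A was 55.1% of untreated, a log2 fold change of -0.86 (-0.93 to -0.78), while BLU-A was at -0.23, BLU at -0.17 and BLA at 0.01. With total counts as the scale, Brca2 and Rad50 were the 2 members past 1 in size in BLA-A. The antisense gene N4bp2l1, which overlaps Brca2, stood at 6.06 CPM in untreated cells and 2.91 in BLA-A.

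Brca1, whose protein promotes resection and recruits PALB2 (chromosome 11, 101379577 to 101442781, minus strand), stood at 93.0 (untreated), 100.0 (BLA), 107 (BLU), 73.9 (BLA-A) and 90.1 CPM (BLU-A). The direction differed between treatments, with 0.21 (0.13 to 0.28) in BLU and -0.33 (-0.42 to -0.24) in BLA-A. Brca1 overlaps no other annotated gene. Xrcc3, which also acts in recombination (chromosome 12, 111769626 to 111780327, minus strand), stood at 16.8, 16.6, 23.7, 29.9 and 18.8 CPM in the same order. BLA-A was the highest library at 0.81 (0.64 to 0.99), BLU followed at 0.49, and BLA and BLU-A were at -0.01 and 0.16. Klc1, antisense to Xrcc3, stood at 119 CPM in untreated cells and 158 in BLA-A, a log2 fold change of 0.41 in the same direction, and its part in the Xrcc3 value was not tested.

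The other genes of this group showed smaller values. Palb2, the bridge between BRCA1 and BRCA2, was between -0.38 in BLU-A and -0.16 in BLU. Rad51ap1, a cofactor of strand exchange, was below untreated in BLA-A (-0.52) and BLA (-0.40) and above it in BLU (0.14) and BLU-A (0.34). Rad54l, a motor protein that acts in strand exchange, was between -0.39 in BLA and -0.08 in BLA-A. Rad51c and Xrcc2, which encode further recombination proteins, were between -0.20 and 0.19 in every treatment.

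In the Fanconi pathway, 7 of 8 genes were below the untreated level in BLA-A, with a median of -0.34, while Fanca was above it. In the same library 30 of all 36 members and 50.7% of all genes were below 0. Fanca, a core complex subunit (chromosome 8, 123993038 to 124045331, minus strand), stood at 38.1 (untreated), 25.3 (BLA), 32.7 (BLU), 53.2 (BLA-A) and 35.1 CPM (BLU-A). It was thus lowest in BLA at -0.58 (-0.72 to -0.44) and highest in BLA-A at 0.48 (0.36 to 0.60). Zfp276, antisense to Fanca, was at -0.54 in BLA-A and -0.18 in BLA, and the part of shared reads was not tested. Fanca exceeded 0.5 in BLA-A with DESeq2 size factors and without the filter.

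Fancc, another core complex subunit (chromosome 13, 63432857 to 63645092, minus strand), showed the reverse order. It stood at 20.9 (untreated), 31.8 (BLA), 27.4 (BLU), 15.7 (BLA-A) and 26.0 CPM (BLU-A). The log2 fold change was 0.59 (0.44 to 0.75) in BLA and -0.41 (-0.60 to -0.22) in BLA-A, 1 of the 3 widest ranges among the members. Fancc overlaps Aopep on the opposite strand, which stood at 101 CPM in untreated cells and had log2 fold changes of 0.74 (BLA), 0.74 (BLU), -0.13 (BLA-A) and 0.48 (BLU-A). Gm16907, on the strand of Fancc, was at 0.97, 1.18, -0.32 and 0.66 in that order. The 3 overlapping genes thus shared their signs in all 4 treatments, and the part of shared reads was not tested.

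Brip1, the helicase that binds BRCA1 (chromosome 11, 85948957 to 86092592, minus strand), stood at 80.4 (untreated), 106 (BLA), 98.7 (BLU), 74.7 (BLA-A) and 94.5 CPM (BLU-A). It was above untreated in 3 treatments, by 0.39 (BLA), 0.29 (BLU) and 0.23 (BLU-A), and BLA-A was at -0.11. Its overlapping antisense transcript Brip1os had 415 CPM without treatment and a log2 fold change of 0.01 in BLA. Of the central pair of the pathway, Fancd2 was -0.58 in BLA-A and between -0.22 and -0.09 elsewhere, and Fanci was between -0.25 in BLA-A and 0.18 in BLU. The translocase gene Fancm was -0.48 in BLA-A, the ubiquitin ligase gene Fancl -0.32, and the core subunit gene Fancg -0.35, while these 3 genes were between -0.27 and 0.26 in the other treatments.

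Both mismatch repair genes were below the untreated level in all 4 treatments. Msh6, which recognises base mismatches (chromosome 17, 88282418 to 88298320, plus strand), stood at 192 (untreated), 154 (BLA), 157 (BLU), 153 (BLA-A) and 152 CPM (BLU-A), levels chosen for print after they were seen. The treated libraries lay within 5 CPM of each other below the untreated one, with log2 fold changes from -0.34 to -0.30. Fbxo11, which overlaps Msh6 on the opposite strand, was above untreated by 0.12 to 0.43. Pms2, which nicks the mismatched strand, was at -0.36 (BLA), -0.31 (BLA-A), -0.19 (BLU-A) and -0.09 (BLU).

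Base excision repair held the members with the lowest values in BLA. Apex1, the major endonuclease at abasic sites (chromosome 14, 51162177 to 51164642, plus strand), stood at 91.5 (untreated), 46.9 (BLA), 58.5 (BLU), 90.2 (BLA-A) and 65.2 CPM (BLU-A). BLA was 51.3% of untreated, a log2 fold change of -0.96 (-1.05 to -0.86), BLU was at -0.64 and BLU-A at -0.49, and BLA-A was at the untreated level (-0.02, -0.10 to 0.06). Of the antisense neighbours, Osgep was at -0.09 and Pip4p1 at -0.04 in BLA, and Osgep was at -0.65 in BLU and -0.53 in BLU-A. The part of shared reads in the Apex1 values was not tested.

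Ogg1, the glycosylase for oxidised guanine (chromosome 6, 113303854 to 113312054, plus strand), stood at 12.9 (untreated), 6.45 (BLA), 10.5 (BLU), 13.4 (BLA-A) and 12.3 CPM (BLU-A), levels chosen for print after they were seen. It was lowest in BLA at -0.95 (-1.21 to -0.68) and between -0.28 and 0.05 in the others. Parp1, which senses single-strand breaks (chromosome 1, 180396443 to 180431307, plus strand), stood at 155, 127, 124, 97.2 and 131 CPM in the same order. All 4 treated libraries were below the untreated one, and BLA-A was the lowest at -0.67 (-0.75 to -0.60). Xrcc1, the scaffold of single-strand break repair, was between -0.37 in BLA and -0.12 in BLA-A.

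Nucleotide excision repair genes differed in direction. Xpc, which recognises distorted helices (chromosome 6, 91466287 to 91492898, minus strand), stood at 16.4 (untreated), 20.8 (BLA), 19.1 (BLU), 11.3 (BLA-A) and 26.3 CPM (BLU-A). The 2 nanoparticle libraries stood at either end, with 0.66 (0.49 to 0.84) in BLU-A and -0.52 (-0.74 to -0.30) in BLA-A. Ercc4, a subunit of the nuclease that cuts 5′ of the lesion, was 0.52 in BLA and 0.26 in BLU-A, and its partner Ercc1 was -0.37 in BLA and 0.02 in BLU-A. Ercc2, a helicase subunit of TFIIH, was between -0.10 and 0.18.

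**Figure D3:**
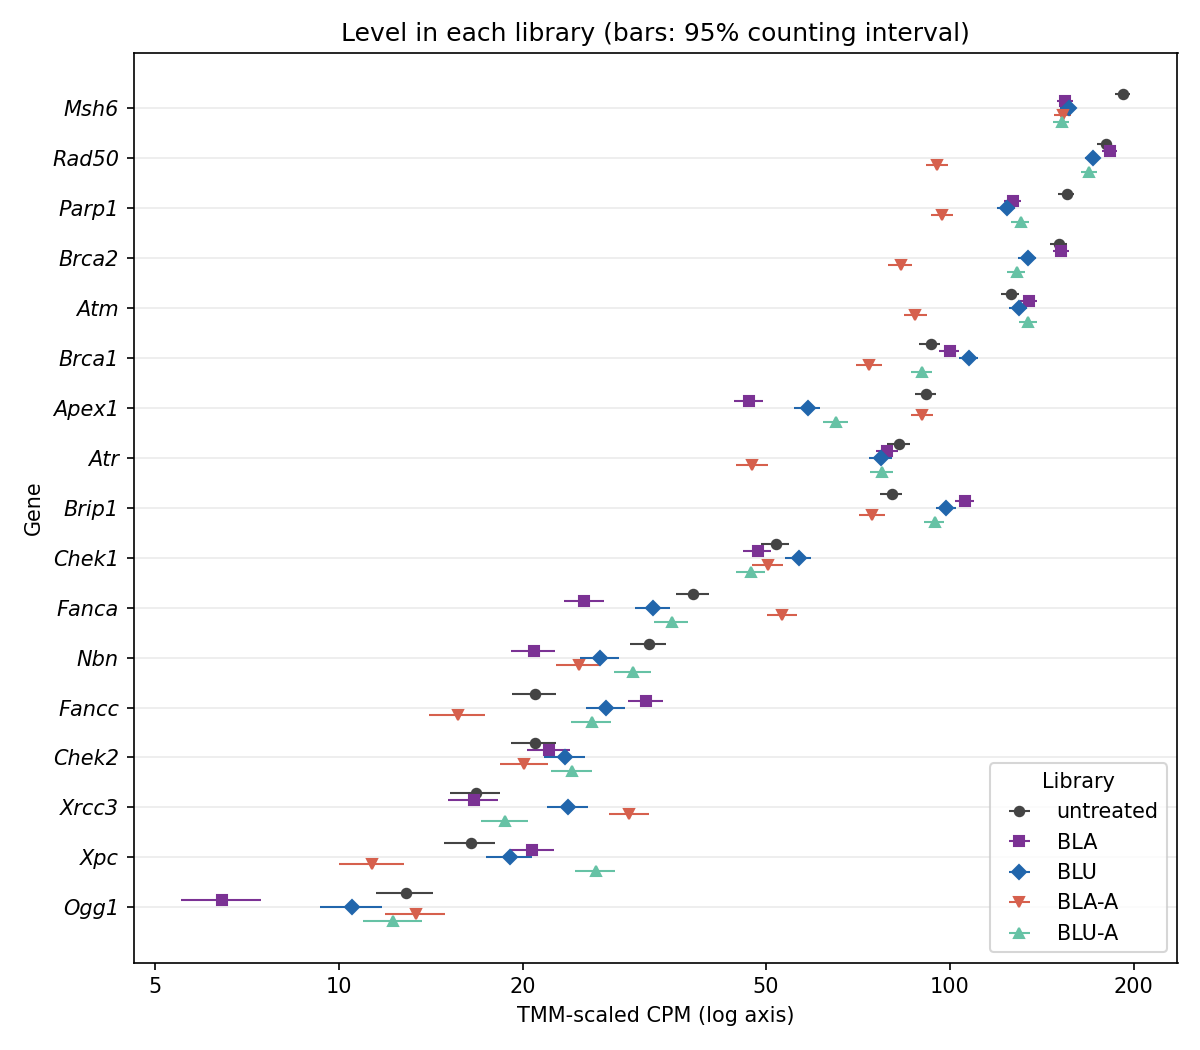
TMM-scaled CPM (log x axis) of 17 repair genes (rows, ordered by untreated level) in the 5 libraries, with bars for the 95% counting interval. BLA-A (red triangles) sits to the left for Rad50, Parp1, Brca2, Atm, Brca1, Atr, Fancc and Xpc and to the right for Fanca and Xrcc3, and BLA (purple squares) sits to the left for Apex1, Nbn and Ogg1.

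Between genes, levels can be set side by side only per length. In untreated cells, CPM per kb of the transcript tagged canonical in the annotation ran from 2.15 for Rad51c to 70.2 for Apex1. Msh6 at 44.6, Parp1 at 39.9 and Rad50 at 34.3 followed Apex1, and Fancg at 3.05 and Rad51ap1 at 4.33 followed Rad51c from below. Per kb of the whole gene span the order differed, with Apex1 (37.1) followed by Msh6 (12.1), Ercc1 (7.82) and Parp1 (4.45), and with Fancc lowest at 0.0987. Brca1 was at 14.0, Brca2 at 11.2, Atm at 10.0 and Atr at 8.57 CPM per kb of the canonical transcript. Reads within introns were counted too, so both scales also hold unspliced RNA.

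The blackberry nanoparticle differed from its own extract in more members than the blueberry one. In BLA-A against BLA, 2 members were past 1 in size, Fanca at 1.06 (0.93 to 1.2) and Fancc at -1.0 (-1.18 to -0.82), against 24.5% of all genes. Above 0.5 were 4 members, Fanca, Ogg1 (1.00), Apex1 (0.94) and Xrcc3 (0.83), against 24.2% of all genes. Below -0.5 were 9 members, which is 25% against 29.6% of all genes and 22.4% of genes at their level. The 9 were Fancc, Rad50 (-0.93), Brca2 (-0.87), Xpc (-0.84), Atr (-0.73), Fancm (-0.65), Atm (-0.61), Ercc4 (-0.56) and Brip1 (-0.50).

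The members past 1 in this comparison turned on the scale, since Fancc was no longer past 1 with DESeq2 size factors, while Apex1 and Ogg1 were. In BLU-A against BLU, 0 members were past 1 against 6.69% of all genes and 0.521% of genes at their level. Above 0.5 were 0 members against 10.6% and 4.69%, and below -0.5 were 0 against 12% and 2.88%. The widest differences there were Xpc at 0.46 and Xrcc3 at -0.33. Whether the 2 berries differed in this respect was not tested, since each comparison rests on 2 libraries.

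**Figure D4:**
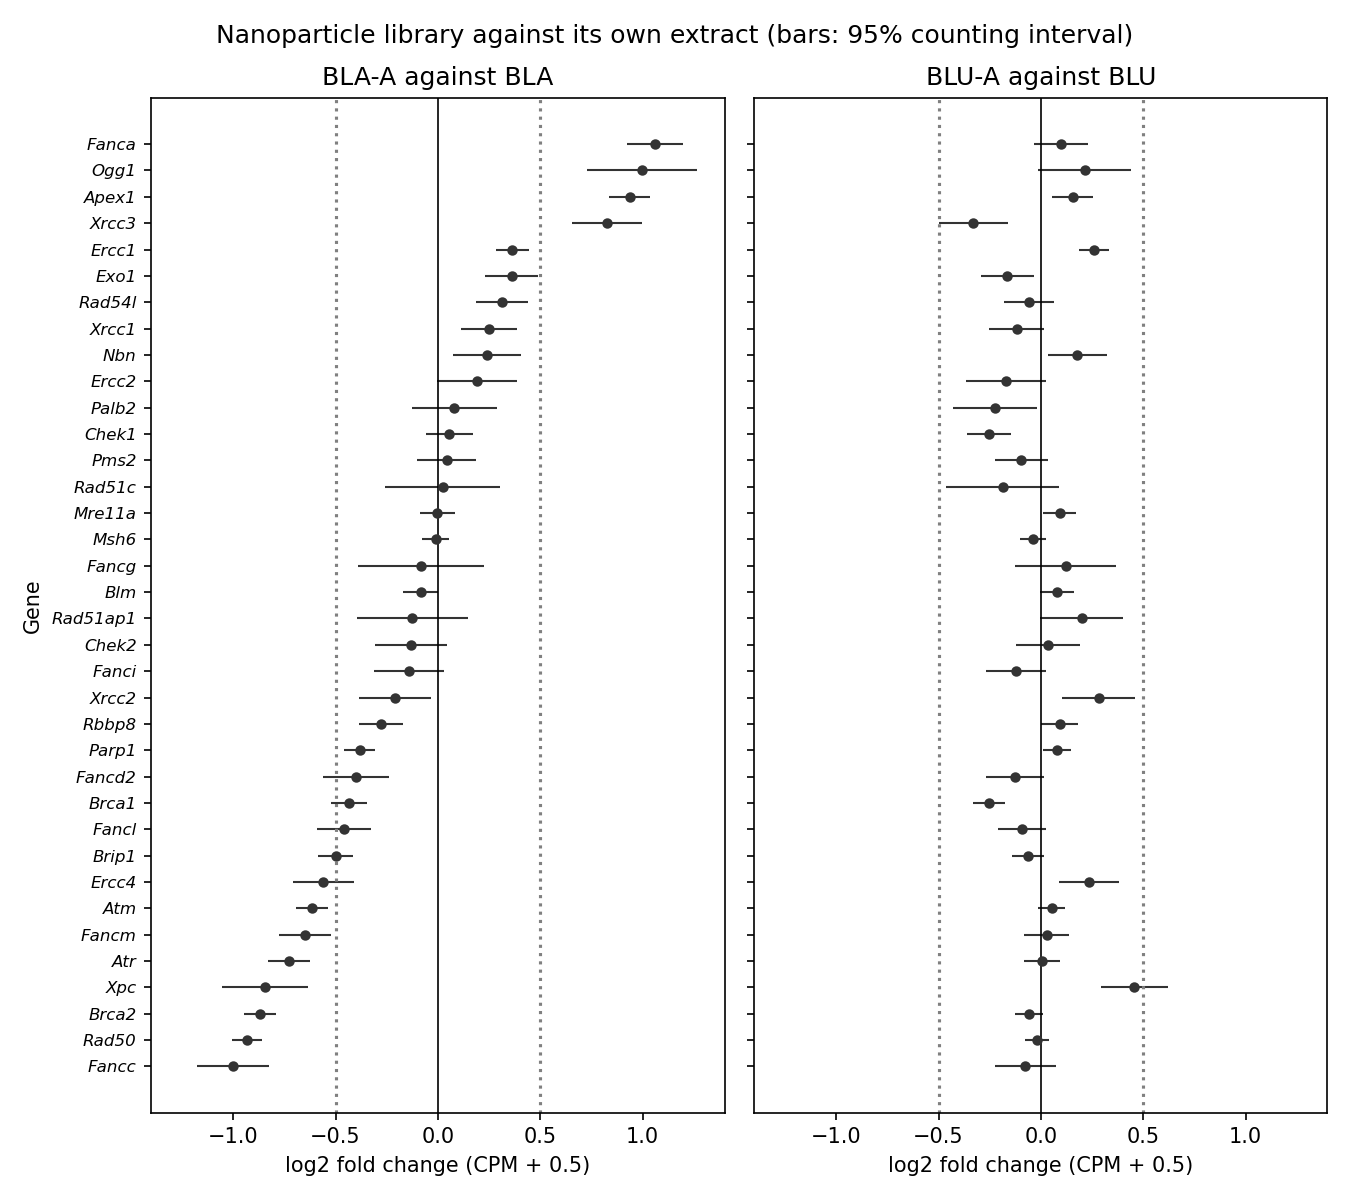
Log2 fold change (x axis, CPM + 0.5) of the 36 repair genes (rows, ordered by the left panel) for BLA-A against BLA (left) and BLU-A against BLU (right), with 95% counting intervals and dotted lines at 0.5 in size. The left panel runs from -1.0 for Fancc to 1.06 for Fanca, and all points of the right panel lie between the dotted lines.

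With all 5 libraries in the fit, each condition counted once, no member passed a test. When the edgeR quasi-likelihood test compared all 4 treated libraries with the untreated library, 4 of 17594 genes passed a Benjamini-Hochberg adjusted p of 0.05 (0.0227%), and none was a member. The untreated arm of this test is 1 library, assumed to vary like the treated ones. The member with the smallest p in edgeR was Msh6 at -0.32 ± 0.21 (SE), with an adjusted p of 0.9995, and it was lower in 4 of 4 treated libraries, as was Parp1 at -0.38 ± 0.25 (SE). With nanoparticles set against extracts, 0 genes passed (0%), 1064 genes had an unadjusted p under 0.05 in edgeR, and DESeq2 called 36 genes, no member among them. The member with the smallest p was Apex1 at 0.56 ± 0.27 (SE), with an adjusted p of 0.70 in edgeR, and it was higher in both nanoparticles than in their extracts. Without the BLU-A library, which leaves BLA-A as the lone nanoparticle library and assumes that it varies like the extracts, 6 members passed this edgeR test, beside 4230 of 17366 genes. These p-values measure the spread between different treatments, not between replicates.

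Longer members tended to have higher values in BLA. Across the 36 members, Pearson's r between the log2 gene span and the log2 fold change was 0.65 in BLA (Spearman's rho 0.57), against 0.43 (0.47) over 8734 genes at the level of the members and 0.0026 (0.11) over 16355 genes tested. The shortest member, Apex1 (2.47 kb), had the lowest value in BLA, and the longest, Fancc (212 kb), the highest. In BLU, r was 0.36, against 0.45 at their level and 0.073 over all. In BLU-A, r was 0.28, against 0.24 and -0.078. In BLA-A, r was -0.34, against -0.10 and -0.28. In BLA-A against BLA, r was -0.66 (rho -0.66), against -0.36 and -0.27, but BLA enters this comparison with the opposite sign, so the value is not separate from that in BLA. The points are genes of the same libraries and are not independent replicates, reads were counted over introns as well as exons, and the part of intron reads was not tested.

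**Figure D5:**
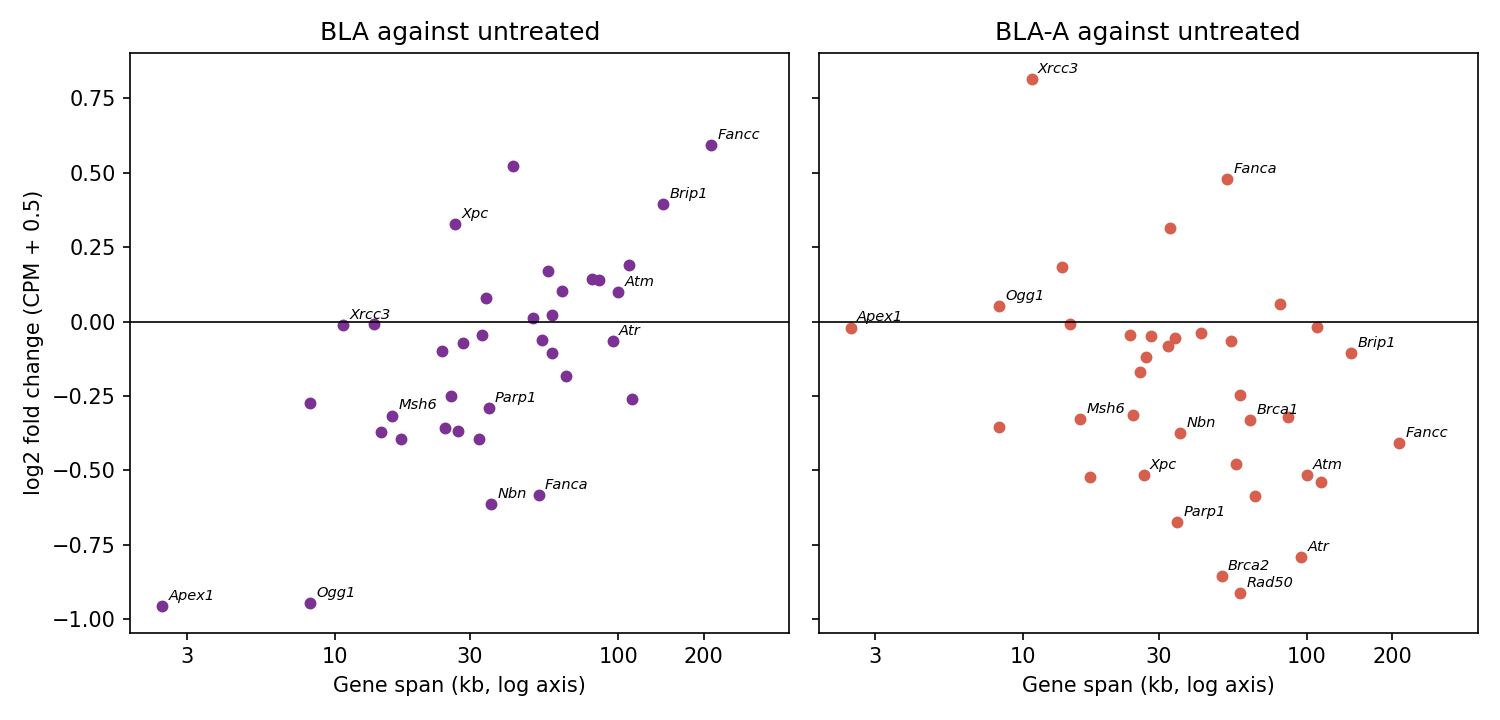
Log2 fold change against untreated (y axis, CPM + 0.5) of the 36 repair genes by the span of the gene in kb (log x axis) in BLA (left) and BLA-A (right). In BLA the points run from -0.96 for Apex1 at 2.47 kb to 0.59 for Fancc at 212 kb, and in BLA-A the genes below -0.7 (Rad50, Brca2 and Atr) span 50.0 to 95.6 kb.

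A further 91 genes of the same repair pathways were listed, of which 87 passed the filter. Atrip, Rnf8 and H2ax were listed at 0 in every library and Neil2 was under 1 CPM. Whether a listed 0 means no RNA or no reads assigned to that row was not tested. Of the 87, 18 (BLA), 2 (BLU), 24 (BLA-A) and 2 (BLU-A) were below -0.5. These are 20.7%, 2.30%, 27.6% and 2.30%, against 21.4%, 14.6%, 26.0% and 11.9% of all genes. In that order 6, 4, 12 and 4 were above 0.5. These are 6.90%, 4.60%, 13.8% and 4.60%, against 21.1%, 18.3%, 23.4% and 12.9% of all genes. The median of these genes in BLA-A was -0.20, beside -0.21 for the members. Among those past 1 in size in any treatment, Rad51b, another recombination gene, stood at 97.1 (untreated), 279 (BLA), 258 (BLU), 133 (BLA-A) and 193 CPM (BLU-A), log2 fold changes of 1.52, 1.41, 0.45 and 0.99.

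Cetn2, a subunit of the XPC complex, was -1.23 in BLA and 0.87 in BLA-A. Fancf, a core complex subunit, was -1.03 in BLA and 0.72 in BLA-A. Parp2, a relative of PARP1, was -1.07 in BLA-A, and Fan1, a nuclease that acts on crosslinks with FANCD2, was -1.0. In BLA-A, Xpc and Cetn2 thus stood on opposite sides of the untreated level.

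The 2 lists of cell cycle genes gave the setting of the S phase genes among the members. The 15 replication genes had median values of -0.47 (BLA), -0.33 (BLU), 0.07 (BLA-A) and -0.16 (BLU-A), and the 12 mitotic genes -0.49, -0.19, -0.45 and -0.08. Within BLA-A these genes lay on both sides of the untreated level, with E2f1 at 1.4 and Mcm5 at 1.05, and Top2a at -1.23, Tyms at -1.16 and Cenpe at -1.12. The part of the cell cycle in the values of the members was not tested.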

How the data were processed

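Bulk RNA-seq of 4T1 cells in 5 conditions was analysed from the counts per gene that the authors deposited for 40402 genes in 15 columns. Per the methods of the study, ribosomal RNA was removed, reads were aligned with STAR to GRCm39 as single-end files of merged mates, and counts were taken by strand on whole gene features, introns included, in OmicsBox. Merged mates can place reads of a gene on its antisense partner, and 31 of the 36 members overlap an antisense gene. The submitters' processing notes also name DESeq2 1.36.0. The other deposited tables hold the authors' own fold changes, p-values and enrichment scores and were not used.

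The 3 columns of a condition were averaged. Genes under 1 CPM in every library were dropped, and the remaining counts were scaled by TMM in edgeR 4.0.16 (R 4.3.3). Fold changes are log2 ratios of CPM values with 0.5 added to each. Counting intervals are exact Poisson limits for a level and 1.96 standard errors from Poisson counts for a log2 fold change. Quasi-likelihood tests in edgeR, adjusted after Benjamini and Hochberg, were run for 4 treated against 1 untreated library (3 residual degrees of freedom) and for nanoparticles against extracts (2 residual degrees of freedom). DESeq2 1.42.0 was an alternative, with other scalings, filters, pseudocounts, left-out libraries and the 15 columns as samples. Positions and overlaps came from GENCODE release 39 for mouse, on GRCm39. Python 3.11.15, numpy 2.4.6, pandas 2.3.3 and scipy 1.17.1 were used.

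The members, roles and other gene lists were chosen with earlier results of these data known. Levels in all libraries are given for the 3 members with the highest and the 3 with the lowest mean log2 fold change over the treatments, the 3 with the widest range, and Brca1, Brca2, Atm, Atr, Chek1 and Chek2. Of other lists, genes past 1 in size in any treatment are named, at most 8 by size, except for a result that is not reported here. Levels of Rad50, Ogg1 and Msh6, and genes named because they overlap a member, were chosen after the data were seen.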

Additional observations from a re-analysis of the deposited data

Results flagged for a closer look

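In 3 of 36 members the BLA-A library lay far below the other 3 treated libraries, by Dixon's ratio of the gap to the nearest library over the whole range, which was above its 95% critical value for 4 libraries. The ratio was 0.909 for Atm, with 87.9 CPM in BLA-A and 130 to 135 in the others. It was 0.952 for Atr, with 47.5 CPM against 77.1 to 79.0, and 0.881 for Rad50, with 95.4 CPM against 169 to 183. The 4 libraries are different treatments and not replicates of a group, and chance flags about 1 group in 20. The rule was applied to the members only, so the share of all genes it would flag is not known. BLA-A was the lowest of the 5 libraries for 52.8% of members and 32.8% of all genes. Being lowest is a looser measure than this ratio, so whether these flags set the members apart cannot be told.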

How the results depend on the processing

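Counts of members past a limit moved by more than 1.5 times as follows. With total counts, 1 member was above 0.5 in BLA, and 2 were past 1 and 17 below -0.5 in BLA-A. With DESeq2 size factors, 2 were above 0.5 and 5 below -0.5 in BLA-A, and 1 was below -0.5 in BLU-A. Scaled without the filter, 1 was above 0.5 in BLU, and 2 were above 0.5 and 4 below -0.5 in BLA-A. With a pseudocount of 2, 1 was above 0.5 in BLA and 1 past 1 in BLA-A against BLA. Without replicate 1, 2 or 3, the members past 1 in BLA-A against BLA were 1 to 2.

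For all treatments against untreated, DESeq2 called 18 genes and edgeR without 1 treated library 3 to 42, the highest without BLA-A. For nanoparticles against extracts, DESeq2 called 36, edgeR without the filter 564, and edgeR without 1 treated library 1 to 4230 genes and 0 to 6 members, the highest without BLU-A, where each arm left with 1 library was assumed to vary like the others. With the 15 columns as samples and no replicate block, 3538 genes and 5 members, and 8882 genes and 12 members, were called. With the replicate block these were 2489 and 3, and 7724 and 10. Columns with the same number did not deviate together (mean r of -0.000928 over 30 pairs), so the numbers do not pair samples, and the columns are subsets of 1 library. Under the alternatives run, 50 values of members changed sign, none of them over 0.18 in size. The causes of these moves were not tested. With 1 library per condition, depth limits only the counting error, and the spread between cultures is unknown.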
